A study of Brassica napus with 6 samples.

Results

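The miRNAs described here are the abundant part of the predicted miRNAs of the Brassica napus shoot apex, headed by the one named novel_mir_1. They were selected on measured abundance: of 327 predicted miRNAs, named novel_mir_1 to novel_mir_327 by the authors, the 64 with a mean raw count of at least 100 over the 4 small RNA files were taken. The rule did not use the comparison of plant types. The study set rod-like plants against normal plants of B. napus (oilseed rape), grown in 1 field and sampled at the shoot apex at early bolting, at an age of 3 months, with 6 plants pooled per RNA sample. Neither a genotype nor a treatment is named for either plant type, and the rod-like form is not described further. The tissue entry of the samples reads shoot apical meristem, but the files hold miRNAs and no marker transcripts by which the tissue could be checked. Each plant type has 2 small RNA files, and the 4 files list 401 miRNAs in all, of which 74 are known miRNAs with names beginning bna.

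A plant miRNA is cut by a Dicer-like enzyme from the stem of a hairpin transcript and guides an Argonaute protein to messenger RNAs that it matches, which are then cleaved or held from translation. Conserved miRNAs are recognised by their known sequences. Predicted miRNAs are called from reads that map to a locus able to fold into such a hairpin, and young miRNAs found in one or a few species are as a rule far less abundant than conserved ones. The small RNA files pair each predicted name with a count, so the members are described here by name and abundance, and no target or function is given for them.

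Listed counts summed to 712169 and 713637 in the rod-like files and to 625795 and 629101 in the normal files. They leave out every read not assigned to a listed miRNA, so they are not the depths of the libraries. The files of a plant type differed by no more than counting noise, over all miRNAs and over the members. For the 64 members, chi-square per degree of freedom was 1.12 between the rod-like files (p = 0.237, chi-square test) and 0.843 between the normal files (p = 0.809). Between files of different plant types it was 256 to 264. The files of each plant type were therefore counted as 1 sample, so n = 1 for rod-like and n = 1 for normal, and no difference given here was checked against a spread between plant pools. Abundance is given as reads per 1000000 listed miRNA reads (RPM) after TMM scaling, a method that sets the scale by the bulk of miRNAs. Ratios are rod-like over normal, from mean counts per file, with 95% intervals for counting error alone. An exact formula for 2 counts was used, with the mean of the 2 files of a plant type entered as 1 count. The intervals are therefore wider than intervals on the summed counts would be. A member was called where its ratio was at least 1.5 in either direction and its interval left out 1.

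The abundant predicted miRNAs spanned a wide range, and a handful of them carried most of the counts. Mean counts ran from 100 to 31231, with a median of 199.6. In 32 members the mean lay between 100 and 200 counts, in 23 between 200 and 500, in 5 between 500 and 2000, and in 4 above that. The 5 most abundant held 85.1% and 85.1% of the members' counts in the rod-like files and 70.9% and 70.7% in the normal files. The median member had 195.5 and 203.5 raw counts in the rod-like files, against 189.5 and 198 raw counts in the normal files.

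**Figure D1:**
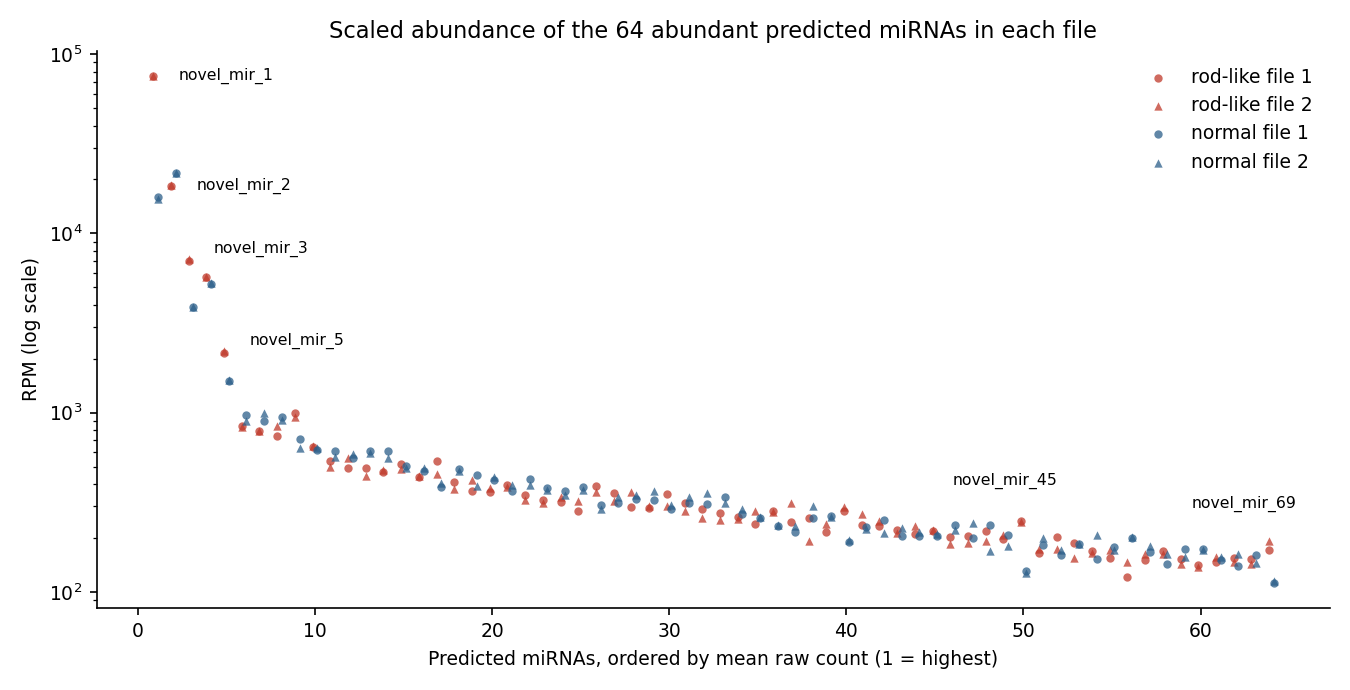
Scaled abundance (RPM, log scale) of the 64 members in each of the 4 files, ordered by mean raw count, with rod-like files in red and normal files in blue. The 5 most abundant members stand apart from the rest, and the files of a plant type lie close together, as at novel_mir_1 with 75482 and 75366 RPM in the rod-like files and 15872 and 15476 RPM in the normal files.

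Most of the difference in the members' summed abundance, 127944 RPM in rod-like and 67808 RPM in normal apices, came from novel_mir_1. It had 52039 and 52688 raw counts in the rod-like files, against 10121 and 10075 raw counts in the normal files. On the RPM scale these were 75482 and 75366 in the rod-like files and 15872 and 15476 in the normal files. Both rod-like values lay far above both normal values, and the ratio was 4.81 (4.71 to 4.92), the only one past 2-fold among the 64. It was called under every scaling tried, with the lowest ratio, 3.40 (3.33 to 3.47), under scaling on known miRNAs alone.

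By rank among all 401 listed miRNAs, novel_mir_1 stood at place 4 in rod-like apices, against place 9 in normal apices. In the rod-like sample its neighbours among known miRNAs were miR158a above it with 183521 RPM and miR172e below it with 67036 RPM. In the normal sample they were miR156bcg with 15746 RPM and miR390a-c with 11727 RPM. The step from miR156bcg to novel_mir_1 in the normal files was within their spread, since the files gave 15867 and 15628 RPM for miR156bcg and 15872 and 15476 RPM for novel_mir_1. Ranks and ratios within a file are not moved by any scaling.

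Of the listed counts, novel_mir_1 took 7.31% (exact binomial 95% interval 7.25 to 7.37) and 7.38% (7.32 to 7.44) in the rod-like files, against 1.62% (1.59 to 1.65) and 1.60% (1.57 to 1.63) in the normal files. All 64 members together took 12.37% and 12.55% in the rod-like files and 6.94% and 6.99% in the normal files. The other 63 members together took 5.07% and 5.16% in the rod-like files and 5.32% and 5.39% in the normal files. Summed over these 63, abundance was 52521 RPM in rod-like and 52137 RPM in normal apices, a ratio of 1.01. Under scaling on known miRNAs alone that ratio was 0.712.

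**Figure D2:**
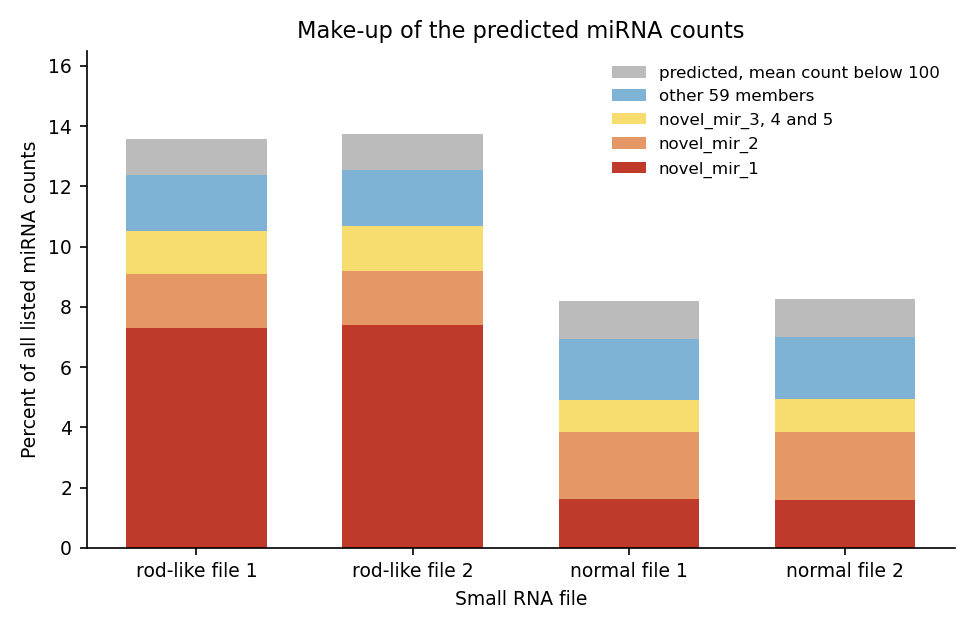
Percent of all listed miRNA counts in each file held by novel_mir_1, by novel_mir_2, by novel_mir_3 to novel_mir_5, by the other 59 members and by predicted miRNAs with a mean count below 100. The segment of novel_mir_1 is 7.31% and 7.38% in the rod-like files and 1.62% and 1.60% in the normal files, while the other segments differ far less.

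The order of the leading members changed between the plant types. In the rod-like files novel_mir_1 had 4.10 and 4.06 times the counts of novel_mir_2, against 0.729 and 0.716 times in the normal files. The most abundant predicted miRNA was thus novel_mir_1 in rod-like and novel_mir_2 in normal apices. Likewise novel_mir_3 had 1.22 and 1.27 times the counts of novel_mir_4 in the rod-like files, against 0.750 and 0.733 times in the normal files.

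The second member by mean count, novel_mir_2, had 18397 and 18554 RPM in the rod-like files, against 21772 and 21606 RPM in the normal files. Both rod-like values lay below both normal values, with a ratio of 0.852 (0.832 to 0.873), short of the 1.5-fold rule. Under scaling on known miRNAs alone its ratio was 0.602, which passes that rule as lower. For novel_mir_3 abundance was 6978 and 7208 RPM in the rod-like files, against 3911 and 3865 RPM in the normal files. The files did not overlap and the ratio of 1.83 (1.74 to 1.92) was called as higher.

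The next by mean count, novel_mir_4 and novel_mir_5, were not called. Abundance of novel_mir_4 was 5711 and 5689 RPM in the rod-like files and 5214 and 5273 RPM in the normal files, with a ratio of 1.09 (1.04 to 1.14). That small difference has no fixed direction, as the ratio was 0.768 under scaling on known miRNAs alone. Abundance of novel_mir_5 was 2164 and 2220 RPM in the rod-like files and 1501 and 1516 RPM in the normal files. Its ratio of 1.45 (1.34 to 1.58) stayed just under the rule, and it was 1.03 under scaling on known miRNAs alone.

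Below these, 3 members of lower abundance were called, all higher in rod-like apices. Abundance of novel_mir_45 was 248 and 245 RPM in the rod-like files, against 132 and 127.5 RPM in the normal files, a ratio of 1.90 (1.46 to 2.50). For novel_mir_69 it was 171 and 193 RPM in the rod-like files and 113 and 115 RPM in the normal files, a ratio of 1.60 (1.19 to 2.16). For novel_mir_36 it was 283 and 297.5 RPM in the rod-like files and 190 and 195 RPM in the normal files, a ratio of 1.51 (1.2 to 1.90). In each of these 3 the files of the plant types did not overlap. The counts behind them are small, with 171 and 171 raw counts in the rod-like files and 84 and 83 in the normal files for novel_mir_45. The call of novel_mir_36 was the least firm. Its ratio was 1.43 with the total listed count, 1.48 with DESeq2 size factors, 1.47 without rod-like replicate 2 and 1.48 without normal replicate 1, and it was not called in these.

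Calls at 1.5-fold thus numbered 5 of 64, or 7.81%, as higher in rod-like apices and 0 as lower. Over all 401 listed miRNAs, 9.48% were called as higher and 3.24% as lower. The members' share of higher calls is near that background. The lowest ratio among the members, 0.667 (0.506 to 0.878) for novel_mir_58, lay just short of the rule. It had 122 and 147 RPM in the rod-like files, against 201 and 203 RPM in the normal files, and was called as lower with the total listed count, DESeq2 size factors and in 3 of the 4 fits that left out a file. Higher and lower calls shifted with the scaling. They went from 5 and 0 as given to 4 and 1 with the total listed count and with DESeq2 size factors. All 401 listed miRNAs gave 33 and 19 with the total listed count, and 36 and 15 with DESeq2 size factors. Scaling on known miRNAs alone, which moved every log2 ratio by -0.50, gave 1 and 33 among the members. Over all 401 listed miRNAs, that scaling gave 2.74% as higher and 26.9% as lower, beside 1.56% and 51.6% of the members. Intervals are wider over all listed miRNAs than over the members, so a call is harder to reach there at the same ratio. Under that last scaling, novel_mir_1 was the only member called as higher, and the ratios were 1.34 for novel_mir_45, 1.29 for novel_mir_3, 1.13 for novel_mir_69 and 1.065 for novel_mir_36.

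**Figure D3:**
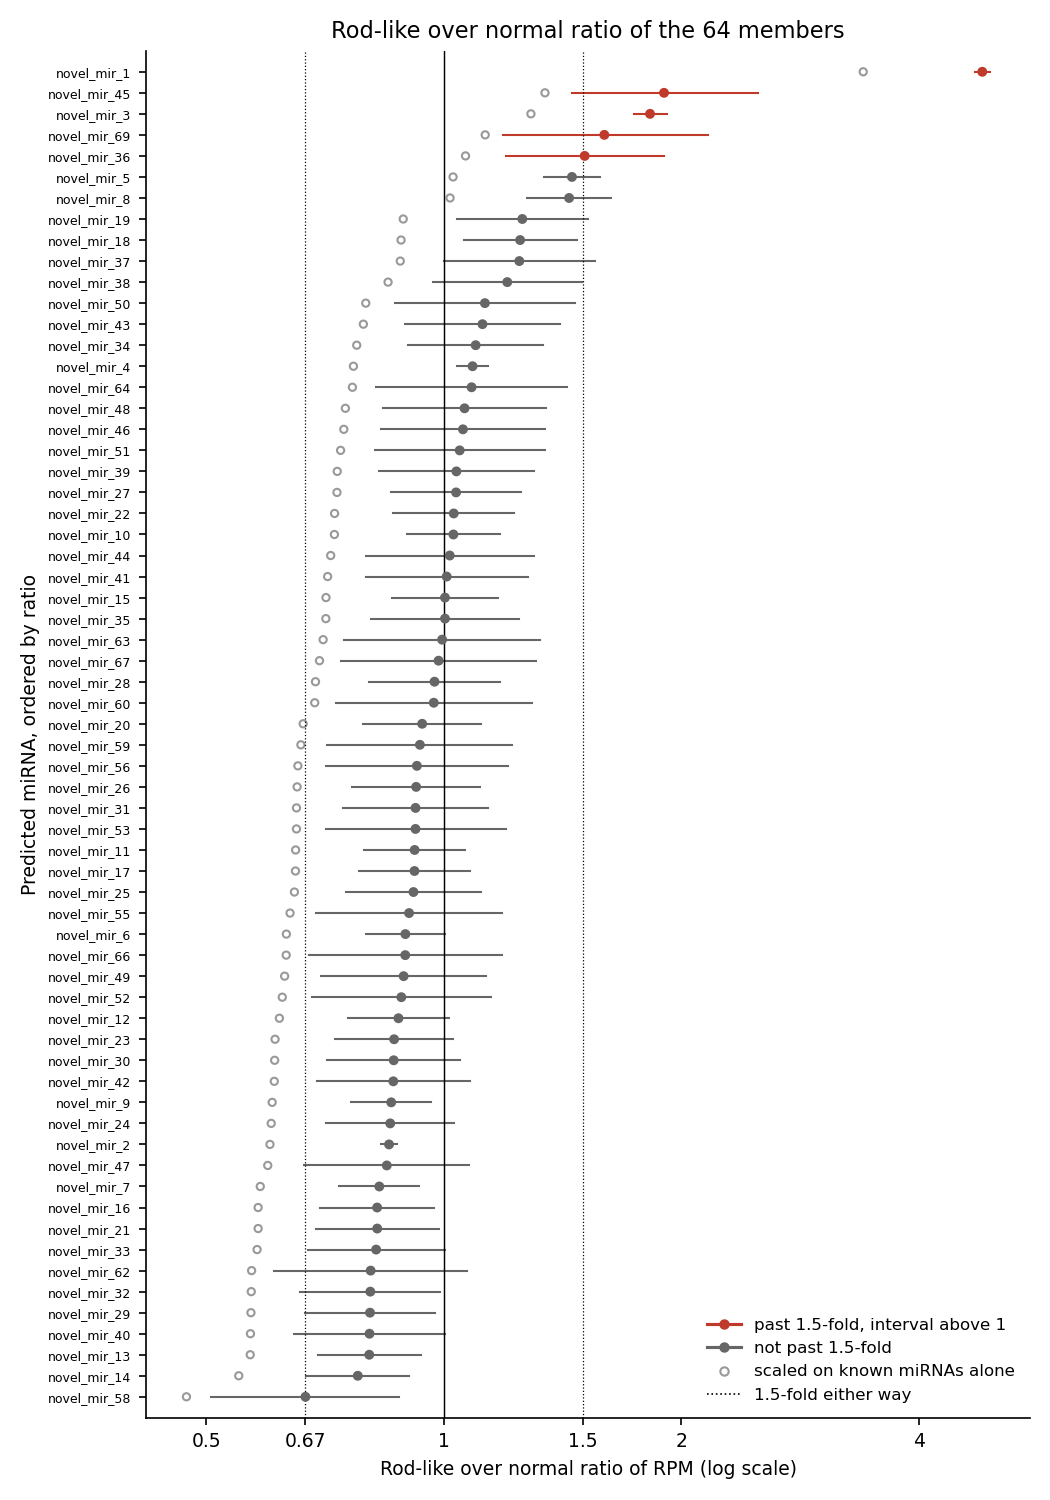
Rod-like over normal ratio (log scale) of each of the 64 members with its 95% counting interval, ordered by ratio. Members past the 1.5-fold rule are in red, and ratios under scaling on known miRNAs alone are open circles. Filled points run from 0.667 at novel_mir_58 to 4.81 at novel_mir_1, 5 are past the rule, and the open circles lie at lower values by the same factor for every member.

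The rule on the mean count has a bearing on these calls. Of the 64 members, 56 had a mean of at least 100 counts in both plant types and 8 in only 1 of them. Both novel_mir_45, with means of 171 in rod-like and 83.5 in normal files, and novel_mir_69, with 126.5 and 73.5, passed through their rod-like counts, so their choice and their difference are not independent. The same limit holds for novel_mir_58, which passed through its normal counts, with means of 93.5 in rod-like and 130 in normal files. Among the 56 the calls were 3. Just inside the threshold lay novel_mir_63 with a mean of 101, novel_mir_60 with 100.25 and novel_mir_69 with 100. Just outside lay novel_mir_54 with 99.5, novel_mir_65 with 95.75 and novel_mir_61 with 95.5. Of the predicted miRNAs left out, novel_mir_54, novel_mir_61 and novel_mir_68 reached 100 in 1 plant type, and novel_mir_68 had means of 104 in rod-like and 55 in normal files.

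How many of the other members differed depends on the scaling. Ratios of 42 of the 64, or 65.6%, lay within 1.2-fold of 1, beside 44.1% of all 401 listed miRNAs. Of these 401, 327 are predicted, the members among them, so closeness to 1 is not independent of a scale set over all listed miRNAs. The intervals of 44 held 1, or 68.8%, beside 79.1% of all listed. Of the remaining intervals 10 lay above 1 and 10 below it, which is 15.6% each, beside 13.5% and 7.48% of all listed. Under scaling on known miRNAs alone, a comparison made after seeing the data, 8 members lay within 1.2-fold of 1. In that scaling 10 intervals held 1, 3 lay above it and 51 below it, or 79.7% below 1, beside 35.4% of all listed. These shares are not like for like. With TMM over all listed miRNAs, the interval reached 54.5% of the ratio to either side in the median listed miRNA, against 20.3% in the median member. With TMM over all listed miRNAs, the intervals above 1 of members not called belonged to novel_mir_4, novel_mir_5, novel_mir_8, novel_mir_18 and novel_mir_19. Abundance of novel_mir_8 was 994 and 950 RPM in the rod-like files and 713.5 and 636 RPM in the normal files, with a ratio of 1.44 (1.28 to 1.63). The ratios were 1.25 for novel_mir_18 and 1.26 for novel_mir_19. Under scaling on known miRNAs alone they were 0.882 and 0.888, so the direction of both depends on the scaling.

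Intervals below 1 in the same scaling belonged to novel_mir_58 and novel_mir_2 and to 8 members with ratios from 0.778 to 0.857. These were novel_mir_14 (0.778), novel_mir_13 (0.804), novel_mir_29 (0.806), novel_mir_32 (0.807), novel_mir_16 (0.823), novel_mir_21 (0.823), novel_mir_7 (0.828) and novel_mir_9 (0.857). The lowest of the 8, novel_mir_14, had 493 and 445 RPM in the rod-like files, against 613 and 593 RPM in the normal files, without overlap. The total listed count and scaling on known miRNAs alone lower every ratio, so these 10 ratios were bound to stay below 1 there.

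Among the 44 members whose interval held 1, ratios above 1 were largest for novel_mir_37 (1.25), novel_mir_38 (1.2), novel_mir_50 (1.13), novel_mir_43 (1.12) and novel_mir_34 (1.10). Smaller ones, from 1.00 to 1.08, were those of novel_mir_64, novel_mir_48, novel_mir_46, novel_mir_51, novel_mir_39, novel_mir_27, novel_mir_22, novel_mir_10, novel_mir_44, novel_mir_41, novel_mir_15 and novel_mir_35. Ratios from 0.970 to 0.995 were those of novel_mir_63, novel_mir_67, novel_mir_28 and novel_mir_60. Ratios from 0.903 to 0.938 were those of novel_mir_20, novel_mir_59, novel_mir_56, novel_mir_26, novel_mir_31, novel_mir_53, novel_mir_11, novel_mir_17, novel_mir_25 and novel_mir_55. The lowest, from 0.805 to 0.893, were those of novel_mir_6, novel_mir_66, novel_mir_49, novel_mir_52, novel_mir_12, novel_mir_23, novel_mir_30, novel_mir_42, novel_mir_24, novel_mir_47, novel_mir_33, novel_mir_62 and novel_mir_40. With TMM over all listed miRNAs, the intervals of these 44 held 1. Those intervals take the mean of 2 files as 1 count, so they are wider than intervals on summed counts would be. As given below, edgeR's test across the 4 files called novel_mir_37 as higher and novel_mir_6, novel_mir_12, novel_mir_33 and novel_mir_40 as lower. The intervals of 40 of these 44 lay below 1 under scaling on known miRNAs alone, such as 0.562 to 0.709 for novel_mir_6. The interval reached 20.3% of the ratio to either side in the median member, 2.14% in novel_mir_1 and 30.4% in the widest.

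Differences between plant types were also set against the spread between files. The largest fold between 2 files of 1 plant type was 1.40, at novel_mir_44, which had 219 and 193 RPM in the rod-like files and 237 and 169 RPM in the normal files. With TMM over all listed miRNAs, 8 members differed by more than this between plant types, namely novel_mir_1, novel_mir_3, novel_mir_5, novel_mir_8, novel_mir_36, novel_mir_45 and novel_mir_69, which were higher in rod-like apices, and novel_mir_58, which was lower. In other scalings, also tried after seeing the data, the numbers were 7 and 1 with DESeq2 size factors and 5 and 1 with the total listed count. Under scaling on known miRNAs alone novel_mir_1 was the only member past the largest fold between files as higher, and 40 were past it as lower. With TMM over all listed miRNAs, the fold between plant types exceeded the fold between files of that member in 38 members. Neither this count nor those past the largest fold between files has a share over all listed miRNAs beside it. They thus do not set the members apart from the rest of the list. The median member differed by 1.13-fold between plant types and by 1.11-fold between files, taking the larger of both file pairs. The folds between plant types are between means of 2 files, and those between files compare 1 file with 1 other. They are thus not like measures, and the folds between files carry more counting noise.

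**Figure D4:**
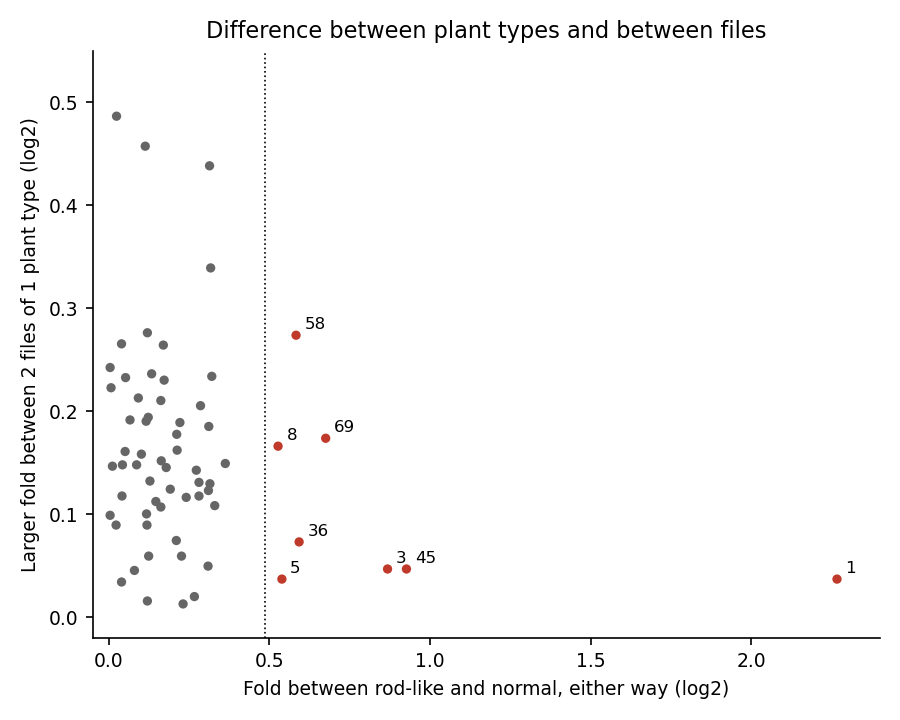
Fold between rod-like and normal (log2, either direction) against the larger fold between the files of a plant type (log2), 1 point for each of the 64 members, with the dotted line at the largest fold between files, 1.40. Values are scaled by TMM over all listed miRNAs, and the 8 members to the right of the line are in red and carry their novel_mir number.

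Files of the plant types did not overlap in 17 members with rod-like above normal and in 26 with rod-like below normal. These are 26.6% and 40.6% of the 64, beside 30.9% and 26.4% of all 401 listed miRNAs. With scaling on known miRNAs alone the numbers were 5 and 56, or 7.81% and 87.5% of the members, beside 9.73% and 64.6% of all listed miRNAs. They were 11 and 34 with the total listed count, and 14 and 30 with DESeq2 size factors. Both of these scalings lower every ratio, and no share over all listed miRNAs is given for them. Those numbers are thus not a result about the members. As the files of a plant type hold little more than counting noise, files that do not overlap can go with a small ratio, such as 1.03 for novel_mir_10.

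edgeR's quasi-likelihood test across the 4 files, with Benjamini-Hochberg adjustment over the 391 miRNAs tested at a threshold of 0.05, called 25 of the 64 members, 11 as higher and 14 as lower in the rod-like files. These are 17.2% and 21.9% of the members, beside 16.4% and 10.7% of all miRNAs tested. The 11 included the 5 members past 1.5-fold, novel_mir_4, novel_mir_5, novel_mir_8, novel_mir_18, novel_mir_19 and novel_mir_37. The 14 were the 10 with intervals below 1 and novel_mir_6, novel_mir_12, novel_mir_33 and novel_mir_40. The test treats the files of a plant type as separate samples, so it compares these files and not plant pools. DESeq2's Wald test called 7 as higher and 5 as lower, edgeR without normal replicate 1 called 8 and 6, and without rod-like replicate 2 it called 10 and 7. With scaling on known miRNAs alone the split in edgeR was 3 and 53, or 4.69% and 82.8% of the members. Of all miRNAs tested, 7.14% and 43.6% were then called as higher and as lower. With the total listed count, which lowers every ratio, the split was 9 and 21. No share over all miRNAs tested is given for that scaling, for DESeq2's Wald test or for the fits that left out a file. Their counts are thus not a result about the members as a group.

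As a group, the abundant predicted miRNAs had a median log2 ratio of -0.10, beside 0.00 over all 401 listed miRNAs, -0.02 over the 263 predicted miRNAs below 100 counts and 0.44 over the 45 known miRNAs that averaged at least 100 counts. On the log2 scale the median of these known miRNAs lay 0.53 above that of the members, a gap that no scaling moves. With scaling on known miRNAs alone the medians were -0.60 for the members, -0.53 for the other predicted miRNAs and -0.06 for the known ones.

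Ratios of the members lay closer together than those of the other groups. Within 1.2-fold of their own median lay 50 of the 64 members, or 78.1%, beside 26.7% of the 45 known and 42.6% of the 263 other predicted miRNAs. The range from the lower to the upper quartile of the log2 ratio was 0.31 for the members, 0.77 for the known and 0.59 for the other predicted miRNAs. Counting error differed between these groups, and its part in the narrower range was not tested. The interval reached 20.3% of the ratio to either side in the median member, 9.25% in the median known miRNA and 68.5% in the median predicted miRNA below 100 counts. At 1.5-fold 19 of the 45 known miRNAs were called as higher and 2 as lower, and of the other predicted miRNAs 11 as higher and 9 as lower. These were 7 and 9 of the known and 2 and 63 of the other predicted miRNAs under scaling on known miRNAs alone.

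**Figure D5:**
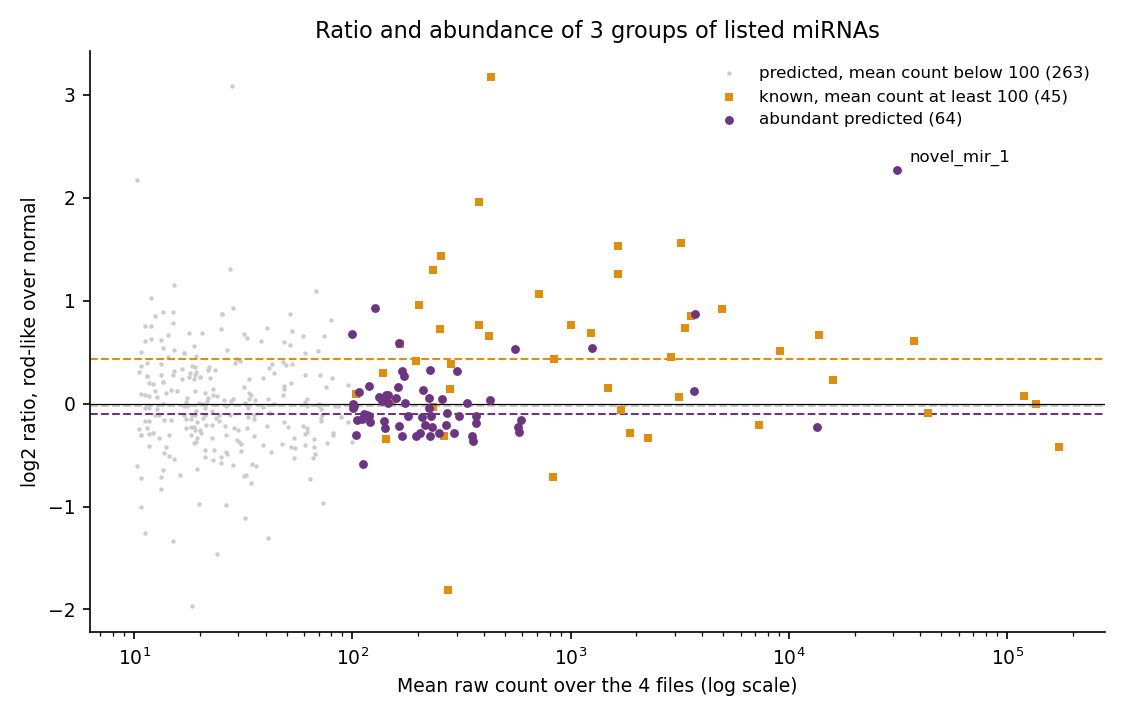
Log2 ratio of rod-like over normal against mean raw count (log scale) for the 64 abundant predicted miRNAs, the 45 known miRNAs averaging at least 100 counts and the 263 other predicted miRNAs, with dashed lines at the group medians of -0.10, 0.44 and -0.02. The members gather near their median except for novel_mir_1 and a few others, while the known miRNAs are spread over a wider range.

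Setting novel_mir_1 aside, the members still differed between plant types by more than counting noise. Chi-square per degree of freedom between files of different plant types was 17.5 to 19.0 over the other 63 members and 3.76 to 4.14 over the 59 below the 5 most abundant. It was 448 to 455 over the known miRNAs of at least 100 counts and 2.11 to 2.15 over the other predicted miRNAs. This value grows with the counts, so it is not a measure of the size of a difference.

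The names of the predicted miRNAs follow their abundance. The 64 members hold all numbers from 1 to 69 except 54, 57, 61, 65 and 68. Over the members the Spearman correlation of number and mean count was -0.99, and over all 327 it was also -0.99. The lowest mean count of any predicted miRNA was 10.25, while 9 of the 74 known miRNAs lay under 10 counts. In no file did a predicted miRNA have 0 counts, and the lowest value was 2.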

How the data were processed

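Small RNAs of 18 to 30 nt were gel-purified, ligated to adaptors, amplified and read on the Illumina Genome Analyzer platform, as the labels' protocols state. The deposited small RNA files hold raw counts per known or predicted miRNA, whole numbers with no normalization seen in the values. Neither the mapper nor the prediction tool and its filters, nor the counting of reads shared by similar miRNAs, is stated in the sources used here. Degradome files were not used, as their names for predicted miRNAs may not match.

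Members were the predicted miRNAs with a mean raw count of at least 100. The members, lists and tests were chosen with earlier results of these data known. RPM is the count per 1000000 after edgeR's TMM over all listed miRNAs (edgeR 4.0.16, R 4.3.3). Ratios use mean counts per file with conditional 95% intervals, in which the mean of the 2 files of a plant type stands as 1 count. Amplified reads are not separate molecules, and the intervals cover only counting error. No source says that the files of a plant type came from separate plants beyond the pools of 6. edgeR's quasi-likelihood test used filterByExpr and robust fitting on the 4 files, and DESeq2 1.42.0 was an alternative. Both edgeR and the interval were tested on simulated data. The test of the interval drew 1 count per plant type, so it did not cover intervals on the mean of 2 files. Alternatives covered scaling, low-count filter, fold, count minimum, a replicate block and each file left out. Members past 1.5-fold and the 5 most abundant are given in full, and every other member by its ratio. Joins and ratios were made in Python 3.11.15, pandas 2.3.3 and SciPy 1.17.1.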

Additional observations from a re-analysis of the deposited data

How the results depend on the processing

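Every count and median below is for the 64 members unless said otherwise. The 5 calls at 1.5-fold became 34 with scaling on known miRNAs alone, 1 higher and 33 lower, and with the total listed count or DESeq2 size factors 1 was lower. They became 13 (11 and 2) at a mean count of at least 50 with 114 members, 2 (2 higher) at 200 with 32 members, and 3 (3 higher) where both plant types reached 100. At 1.2-fold they were 17 (9 and 8) and at 2-fold 1 (1 higher). Relative to the members' own median, an alternative chosen after seeing the data, 7 were higher. Leaving out each file gave 5 to 6 calls, 4 to 5 higher and 0 to 1 lower.

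The median log2 ratio of -0.10 became -0.17 with the total listed count, -0.125 with DESeq2 size factors and -0.60 with known miRNAs alone. It was -0.124 at 200 counts, -0.115 where both plant types reached 100, and -0.102 to -0.057 without each file, with -0.057 without rod-like replicate 1. The ratio of novel_mir_1 was 4.56 with the total listed count, 3.40 with known miRNAs alone and 4.70 to 4.84 without each file. The members' share of counts, 12.5% in rod-like and 6.96% in normal files, became 5.12% and 5.35% without novel_mir_1. Of predicted counts it was 91.3% and 84.6%.

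The edgeR calls, 11 higher and 14 lower, became 56 (3 and 53) with known miRNAs alone and 12 (7 and 5) with DESeq2's Wald test. Without each file they were 14 to 20, 8 to 10 higher and 6 to 11 lower, with 14 (8 and 6) without normal replicate 1. Same-numbered files of the plant types share only a number, with a correlation of their deviations of 0.013 over 392 miRNAs. The replicate block gave 25 calls, 11 higher and 14 lower. None of the 5 ratios called at 1.5-fold changed direction with any file left out. A scaling moves every log2 ratio by the same amount, -0.501 for known miRNAs alone and less for the others tried. The lowest log2 ratio of the 5 was 0.593, so no scaling tried could have turned their direction. Called as higher by edgeR with smaller ratios, novel_mir_4, novel_mir_18, novel_mir_19 and novel_mir_37 had ratios below 1 with known miRNAs alone. Scaling on known miRNAs alone moved all 64 ratios out of their intervals, and the total listed count moved 4. Depth limits the rarer members: the interval of the median member with a mean of 100 to 200 counts reached 24.9% of the ratio to either side, and the widest 30.4%.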
